A study of Mus musculus with 6 samples.

Results

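The clustered protocadherin genes were followed in the irradiated mouse cortex with and without Lgmn. The members were the rows of the deposited count table whose gene name begins with Pcdha, Pcdhb or Pcdhg followed by the number or letter of a variable exon, and this rule found 58 of 51826 gene IDs. There were 14 in the alpha cluster, 22 in the beta cluster and 22 in the gamma cluster, under 57 distinct names, because Pcdha11 carries 2 IDs (ENSMUSG00000007440 and ENSMUSG00000102206) and both rows were kept apart. The row ENSMUSG00000007440 lies between Pcdha9 and the other Pcdha11 row, and no row is named Pcdha10. Lgmn encodes the lysosomal protease legumain, also called asparagine endopeptidase. The libraries were bulk RNA sequencing of the cortex of male BALB/c mice aged 6 to 8 weeks, collected on day 3 after 10 Gy of X-rays to the whole brain, with 3 Lgmn+/+-IR mice (wildtype libraries 1 to 3) and 3 Lgmn-/--IR mice (knockout libraries 1 to 3), and values are given in that order. Both groups were irradiated and no sham mice were analysed here, so every difference is between genotypes after irradiation. The knockouts were Lgmn flox/flox mice that carried Cre, from a line made with a targeted embryonic stem cell clone. The promoter that drives Cre and the strain of the stem cells are not given in the sources used here.

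Clustered protocadherins are cell adhesion proteins of the cadherin superfamily that neurons use to tell their own branches from those of other neurons. Each alpha and gamma gene has its own promoter and its own large variable exon, which encodes the outside of the protein, and this exon is spliced to constant exons that all genes of the cluster share and that encode a common cytoplasmic tail. Beta genes have no constant exons. Single neurons switch on a few of the alternate genes at random through DNA demethylation and CTCF and cohesin looping, whereas the C-type genes (Pcdhac1, Pcdhac2, Pcdhgc3, Pcdhgc4 and Pcdhgc5) are used more uniformly. In bulk cortex, fewer cells that use a gene and less RNA per cell cannot be told apart.

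In the annotation (GRCm38, GENCODE), all 3 clusters lie on the plus strand of chromosome 18, with alpha from 36930184 to 37187661, beta from 37264938 to 37524479 and gamma from 37661793 to 37841873. The main transcript of every alpha and gamma gene has 4 exons, and that of every beta gene has 1. The exons that an alpha gene shares with other members make up a median of 53.4% of its exon length, against 44.7% for gamma genes and 0% for beta genes. Among beta genes, Pcdhb21 and Pcdhb22 overlap each other. First exons were compared by alignments over at least 50% of their length, found for 12 of 14 alpha, 14 of 22 beta and 15 of 22 gamma genes. The highest identity in these was 86.1% in alpha, 89.8% in beta and 82.0% in gamma, so none was a copy over that length. Shorter alignments were left out. The deposited count of a gene, divided by its FPKM and the library total, gives the length that the FPKM refers to. That length was a median of 1.14 times the whole transcript in each of the 3 clusters, whereas it was 2.45 times the first exon for alpha and 2.05 times for gamma. An alpha or gamma value in these tables therefore refers to the variable exon together with the constant exons, and a read that lies only in a constant exon cannot be traced to a promoter. How the counter assigned such reads is not given in the sources used here.

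Total counts were 41874462 to 46829441 per library. Lgmn had 5558, 5528 and 5775 counts in the wildtype libraries against 3703, 3269 and 4109 in the knockout libraries, a log2 fold change of -0.64 (adjusted p = 0.0315, edgeR quasi-likelihood test). The call was lost without any of the wildtype libraries or without knockout library 1 (adjusted p = 0.0949 to 0.131). The count covers the whole gene, so any transcripts that lack the deleted part would still count. Whether the counts left in the knockout libraries come from such transcripts was not tested. Of the marker lists, the summed level of 11 neuron markers was 10656 to 11839 CPM (TMM-normalized counts scaled to the library size) in the wildtype and 11474 to 13671 in the knockout libraries. Blood markers were called higher in Lgmn-/--IR (5 of 5 tested, sum of the list 7.59 to 15.8 against 233 to 2272 CPM). Of 10 oligodendrocyte markers, 9 had a negative log2 fold change and 5 of these were called lower (sum of all 10, 3586 to 4354 against 2451 to 2575 CPM). Of 8 astrocyte markers edgeR called only Aqp4 (log2 fold change 0.55, lost in 7 of 16 alternatives), and DESeq2 also called Gja1 (0.74 with edgeR). Of 12 choroid plexus and meninges markers edgeR called only Slc6a13 (0.68, lost in 9 of 16), and 4 had a negative log2 fold change. In that list DESeq2 also called Igf2 (0.71 with edgeR). Of the tested neuron, microglia, endothelial and mural, striatum and serotonergic markers, edgeR called 0 (DESeq2 called Csf1r of microglia, and 1 neuron, 1 serotonergic and 3 microglia markers had an unadjusted p under 0.05). Striatum markers varied within both groups, at 542 to 2400 CPM and 455 to 2129 CPM. The part of these markers in the protocadherin values was not tested.

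In the gamma cluster Pcdhga11 was several-fold higher in every Lgmn-/--IR library, and a very high count moved from gene to gene between libraries without following genotype. Summed over its genes, each cluster overlapped between genotypes. Genes of the beta cluster leaned upward in small steps that did not pass the test.

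The summed alpha level was 99.7 ± 10.6 CPM in the wildtype and 101.7 ± 8.08 in the knockout libraries (mean ± SD, n = 3 each), a ratio of 1.02. For beta it was 142 ± 16.7 and 158 ± 18.8 CPM, a ratio of 1.12. For gamma it was 671 ± 57.6 and 715 ± 41.0 CPM, a ratio of 1.07. The libraries of the genotypes overlapped for all 3 sums, and on the deposited FPKM, a value scaled for length and library size, the ratios were 0.997, 1.10 and 0.994. The genotype difference of each sum was thus no larger than the larger of its SDs.

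**Figure D1:**
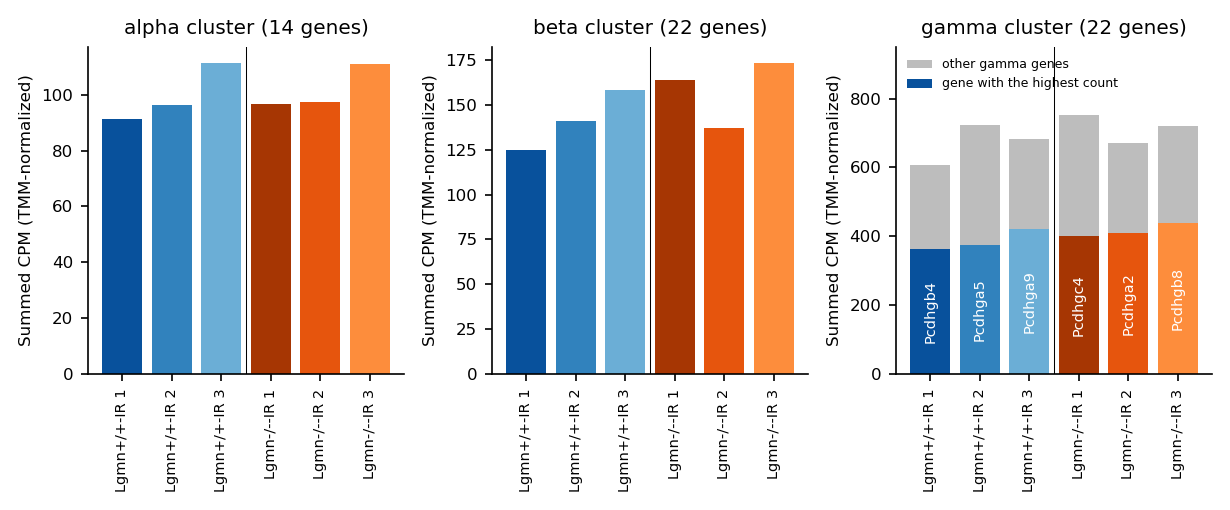
Summed TMM-normalized CPM of the alpha, beta and gamma cluster in each library (bars; 3 Lgmn+/+-IR libraries left of the line, 3 Lgmn-/--IR libraries right of it; the CPM scales differ between panels). In the gamma panel the coloured part is the gene with the highest count, named in the bar, and it is a different gene in each of the 6 libraries while the whole bar differs by at most 1.24 times.

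Of the 58 members, 56 had enough counts to be tested. Pcdhb1 (4, 5 and 16 counts against 10, 6 and 4) and Pcdhb21 (91, 0 and 0 against 30, 0 and 0) fell below the filter. At an adjusted p under 0.05 (edgeR quasi-likelihood test, adjusted over all 18345 genes tested), 3 members differed between genotypes, 5.36% of those tested, beside 3.33% of all genes. Higher in Lgmn-/--IR were 2 of them (1.65% of all genes were called higher), and 1 was lower (1.68% of all genes). Of the 3, 2 were also DEGs, which need an absolute log2 fold change over 1 as well (3.57% of members beside 2.06% of all genes). A share of calls this near to the background is no result about the clusters as a whole. An unadjusted p under 0.05 (edgeR quasi-likelihood test) was found for 18 of 56 members, or 32.1% beside 18.6% of all genes. Of these, 11 were in gamma (50% of its genes), among them 6 of the 8 genes whose count jumps in single libraries, described below. Members had a positive log2 fold change in 35 of 56 cases, against 48.3% of all genes, split 7 of 14 in alpha, 16 of 20 in beta and 12 of 22 in gamma. The median log2 fold change was 0.02 in alpha, 0.15 in beta and 0.16 in gamma, beside -0.01 over all genes. Over the 16 alternatives the alpha median lay between -0.11 and 0.05 and the gamma median between -0.07 and 0.30, both on either side of 0, whereas the beta median lay between 0.07 and 0.25.

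**Figure D2:**
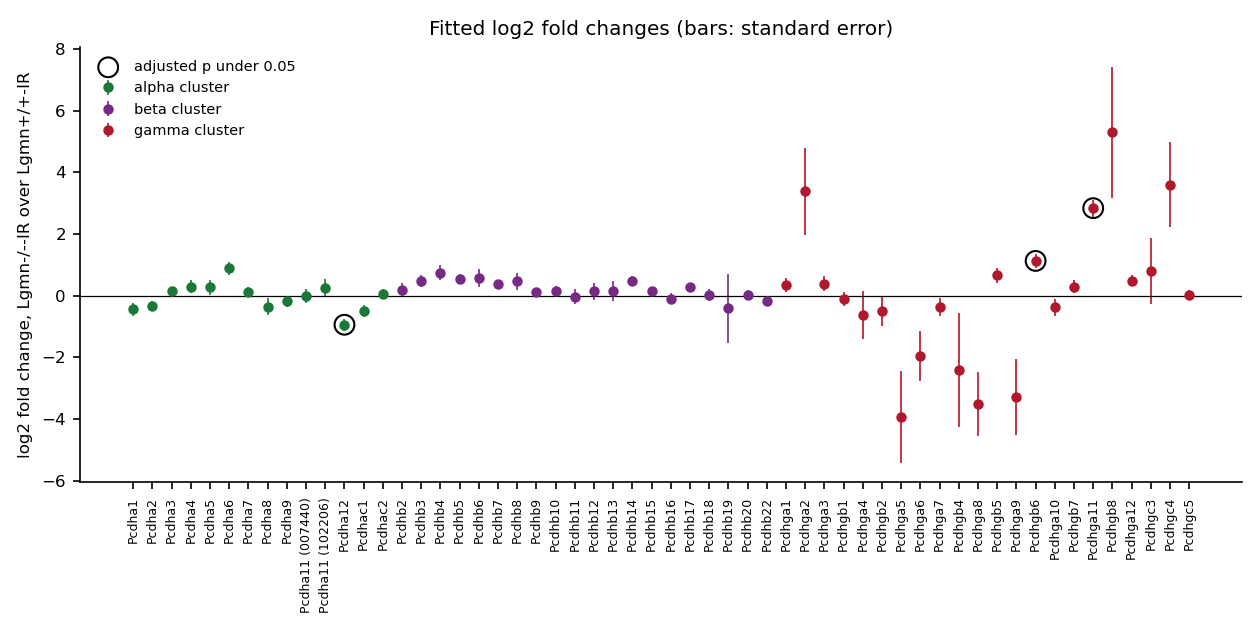
Log2 fold change of Lgmn-/--IR over Lgmn+/+-IR for the 56 tested members in chromosomal order (points, with bars for the standard error and rings for adjusted p under 0.05). The standard error was derived from the log2 fold change and the F statistic of the test. The standard errors of Pcdhga8 and of the 8 gamma genes whose count jumps in single libraries are 0.81 to 2.13, while the median standard error is 0.21 in alpha and 0.19 in beta.

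In the alpha cluster, Pcdhac2 was the highest gene per length in each of the 6 libraries, with 30.8 to 36.9% of the summed alpha FPKM. Pcdhac2, a C-type gene needed for the even spread of serotonergic axons, had 1398, 1468 and 2083 counts against 1722, 1579 and 1906. Its groups overlapped and its log2 fold change was 0.04 (SE 0.16). The next alpha genes per length, Pcdha6, the Pcdha11 row ENSMUSG00000102206 and Pcdha12, were at 2.17, 1.71 and 1.39 FPKM over all libraries, against 5.69 for Pcdhac2. Pcdha8 was lowest at 0.135 FPKM, with 28 to 50 counts.

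Pcdha12 was the only alpha gene called. It encodes an alternate alpha isoform and lies at 37020149 to 37187657. Its counts were 392, 457 and 605 in the wildtype libraries against 206, 293 and 276 in the knockout libraries, so each knockout library was below each wildtype library. The level fell from 11.05 ± 2.08 to 5.74 ± 0.960 CPM (log2 fold change -0.94, SE 0.19, adjusted p = 0.0499, edgeR quasi-likelihood test). This call sits at the threshold. It was lost when any of the 6 libraries was left out (adjusted p = 0.0648 to 0.156), and it held in only 3 of 16 alternatives. The antisense gene Gm10545 lies across the start of Pcdha12 and had 8 to 64 counts, and whether strand was used in counting is not given in the sources used here.

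Pcdha6, another alternate alpha isoform, went the other way with 261, 358 and 458 counts against 749, 583 and 705. The groups did not overlap, at 8.18 ± 1.98 and 15.2 ± 2.29 CPM, and the difference missed the threshold (log2 fold change 0.89, SE 0.21, adjusted p = 0.0725, edgeR quasi-likelihood test). DESeq2 gave an adjusted p of 0.00210 for it. As shares of the summed alpha FPKM, Pcdha12 was at 10.9% ± 0.985 against 5.53% ± 0.772, and Pcdha6 at 9.12% ± 1.53 and 16.7% ± 2.71. Both shares were apart between genotypes while the alpha sum was not.

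Pcdhac1, the other alpha C-type gene, had 186, 169 and 200 counts against 115, 179 and 113 (log2 fold change -0.49, SE 0.20, adjusted p = 0.259, edgeR quasi-likelihood test). On the CPM scale its knockout libraries were all below its wildtype libraries, as were those of Pcdha2 (log2 fold change -0.32), so that 3 of 14 alpha genes were below in this sense and 1 was above. The shares over all genes were 13.3% below and 12.4% above. The other 10 alpha rows overlapped between genotypes, with log2 fold changes from -0.44 (Pcdha1) to 0.30 (Pcdha4).

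**Figure D3:**
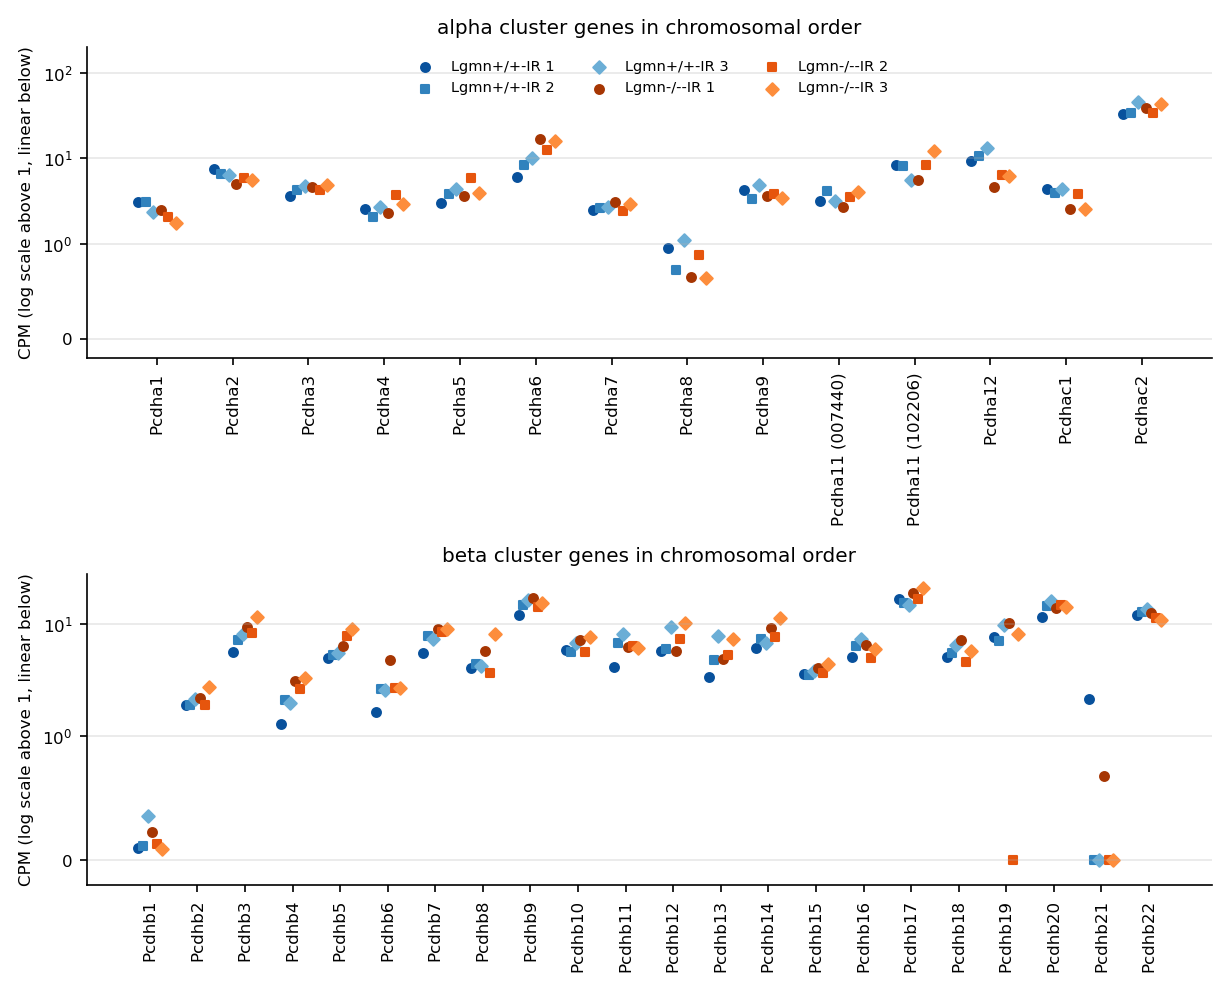
TMM-normalized CPM of each alpha gene (top) and beta gene (bottom) in each of the 6 libraries, in chromosomal order; the axis is logarithmic above 1 CPM and linear below. The blue Lgmn+/+-IR points and orange Lgmn-/--IR points interleave for most genes, Pcdha6 and Pcdha12 separate in opposite directions, and Pcdhb19 is at 0 in 1 library.

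In the beta cluster 0 of 20 tested genes had an adjusted p under 0.05, and 4 had an unadjusted p under 0.05, or 20% beside 18.6% of all genes. All 4 were higher in Lgmn-/--IR, where 9.26% of all genes were higher at that p. DESeq2, limma-voom and limma on log2(FPKM + 1) also called 0 beta genes. In chromosomal order, each of the 5 neighbours Pcdhb3, Pcdhb4, Pcdhb5, Pcdhb6 and Pcdhb7 was higher in every Lgmn-/--IR library than in every Lgmn+/+-IR library, and so was Pcdhb14. These 6 are 30.0% of the tested beta genes, beside 12.4% of all genes, and 0 beta genes were lower in every knockout library, beside 13.3%. This run of neighbours was singled out after its values were seen.

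The steps were small. Pcdhb4 had the largest, with 54, 89 and 90 counts against 136, 121 and 145 (log2 fold change 0.75, SE 0.24, adjusted p = 0.159, edgeR quasi-likelihood test). Pcdhb5 had 210, 227 and 247 counts against 280, 358 and 392 (log2 fold change 0.55, SE 0.16, adjusted p = 0.135, edgeR quasi-likelihood test). For the 5 neighbours the log2 fold change was 0.37 to 0.75 and the adjusted p 0.135 to 0.368. Pcdhb6 rested on 1 knockout library, with 70, 111 and 116 counts against 210, 123 and 118, and its groups overlapped on the FPKM and on CPM without TMM. On both of these scales the other 5 genes stayed apart.

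Of the beta genes that lead per length, Pcdhb9 was first in all 6 libraries, with 11.2 to 13.6% of the summed beta FPKM, and had 507, 631 and 743 counts against 755, 660 and 673. Pcdhb20 had 485, 621 and 719 counts against 617, 676 and 619, and Pcdhb17 had 712, 658 and 670 against 836, 774 and 920 (log2 fold change 0.27, SE 0.12). All 3 overlapped between genotypes in TMM-normalized CPM. Pcdhb17 did so narrowly, and on the FPKM it was higher in every knockout library (2.79 to 3.19 against 3.24 to 3.69), as on CPM without TMM. The lowest log2 fold changes were -0.41 for Pcdhb19 (SE 1.11), -0.16 for Pcdhb22 and -0.10 for Pcdhb16.

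Pcdhb19 stood out for a single library. Its counts were 322, 302 and 447 in the wildtype libraries against 455, 0 and 357 in the knockout libraries. A count of 0 in knockout library 2 allows up to 3 counts, or 0.0646 CPM, by counting error alone. The neighbours Pcdhb18 and Pcdhb20 had 213 and 676 counts in that library. Without it, the log2 fold change of Pcdhb19 was 0.18.

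In the gamma cluster, the genes called were Pcdhga11 and Pcdhgb6, both higher in Lgmn-/--IR and both DEGs. Pcdhga11 encodes an alternate isoform of the A type and lies at 37755731 to 37841873. Its counts were 98, 69 and 158 in the wildtype libraries against 745, 779 and 852 in the knockout libraries. The knockout libraries were close to each other and all far above the wildtype libraries. The level rose from 2.46 ± 0.942 to 17.6 ± 1.52 CPM, or 7.16-fold (log2 fold change 2.84, SE 0.27, adjusted p = 0.00284, edgeR quasi-likelihood test). All 16 alternatives called it, with an adjusted p of at most 0.0182 and log2 fold changes from 1.54, on log2(FPKM + 1), to 3.17. They all start from the deposited counts or FPKM, so they cannot address how reads in shared exons were assigned. Such exons make up 44.6% of the exon length of Pcdhga11. Its share of the summed gamma FPKM was 0.334% ± 0.126 and 2.34% ± 0.168. The gene before it, Pcdhgb7, had 214, 292 and 284 counts against 401, 252 and 339 (log2 fold change 0.29, adjusted p = 0.518, edgeR quasi-likelihood test). The gene after it, Pcdhgb8, had 62 to 242 counts in all libraries but knockout library 3.

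Pcdhgb6, an alternate isoform of the B type at 37742094 to 37841873, had 142, 204 and 238 counts against 509, 371 and 425. The groups did not overlap. Its level rose from 4.44 ± 0.992 to 9.71 ± 1.73 CPM (log2 fold change 1.13, SE 0.22, adjusted p = 0.0403, edgeR quasi-likelihood test). The call was lost in 9 of 16 alternatives, among them the omission of any library other than knockout library 2 (adjusted p = 0.0762 to 0.135). Pcdhgb5 (log2 fold change 0.67, adjusted p = 0.206, edgeR quasi-likelihood test) and Pcdhga12 (0.49, adjusted p = 0.222) were also higher in every knockout library, which makes 4 of 22 gamma genes, or 18.2% beside 12.4% of all genes. On the opposite strand Gm26672 spans the start of Pcdhga11 and of its nearest neighbours, and it had 15, 62 and 3 counts against 41, 21 and 79. Without knowledge of the strand setting its reads and theirs cannot be told apart.

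**Figure D4:**
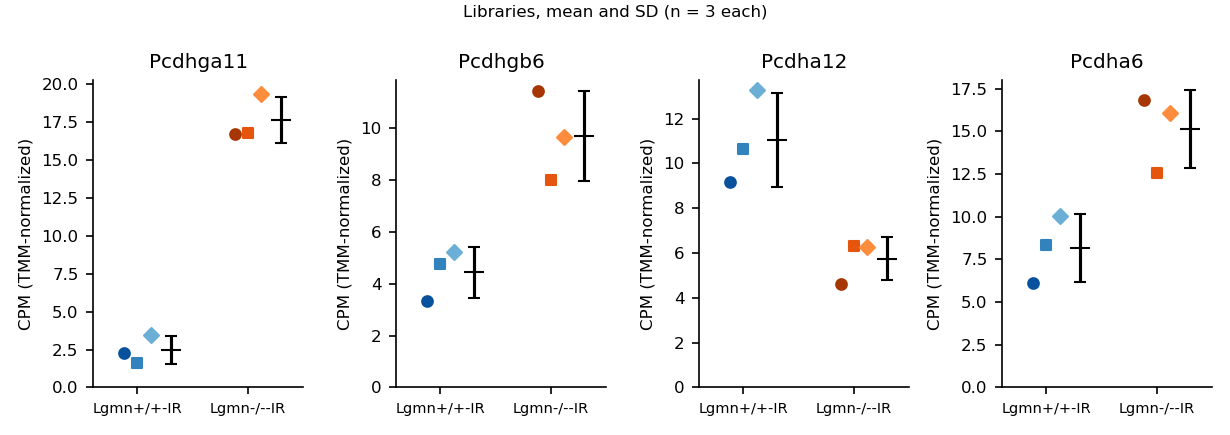
TMM-normalized CPM of the 3 members with an adjusted p under 0.05 and of Pcdha6, with a point for each library (blue Lgmn+/+-IR, orange Lgmn-/--IR) and the mean and SD beside them (n = 3 each). The groups are apart in all 4 panels, with the widest gap for Pcdhga11 (2.46 against 17.6 CPM) and the reverse order for Pcdha12 (11.05 against 5.74 CPM).

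The gamma cluster differed from the others in how its counts were spread over its genes. In each library a single gamma gene held 49.1 to 58.5% of the summed gamma FPKM, and it was a different gene in each of the 6 libraries. In the Lgmn+/+-IR libraries it was Pcdhgb4 (15510 counts in library 1), Pcdhga5 (16068 in library 2) and Pcdhga9 (19182 in library 3). In the Lgmn-/--IR libraries it was Pcdhgc4 (17856 in library 1), Pcdhga2 (19014 in library 2) and Pcdhgb8 (19270 in library 3). The same genes had 62 to 3308 counts in the other libraries. In alpha and beta, by contrast, the same gene was first in all 6 libraries.

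Pcdhgb8 showed the widest swing, with 110, 141 and 242 counts against 73, 62 and 19270. Pcdhgc4, the C-type isoform known for its need in the survival of cortical interneurons, had 498, 414 and 618 counts against 17856, 404 and 640. Outside knockout library 1 its libraries overlapped between genotypes. Pcdhga5 had 269, 16068 and 465 counts against 373, 341 and 441.

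Smaller jumps of the same kind followed. Pcdhga6 had 3443 counts in wildtype library 2 and 315 to 638 elsewhere. Pcdhga9, first in wildtype library 3, also had 3308 counts in wildtype library 1 and 1303 in knockout library 2, beside 306 to 648 in the others. Pcdhgc3, a C-type gene known for promoting dendrite growth in cortical neurons, had 2942, 3174 and 2931 counts in wildtype library 2 and knockout libraries 1 and 2, and 246 to 384 in the other 3. For Pcdhgc3, both the high and the low libraries included each genotype.

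**Figure D5:**
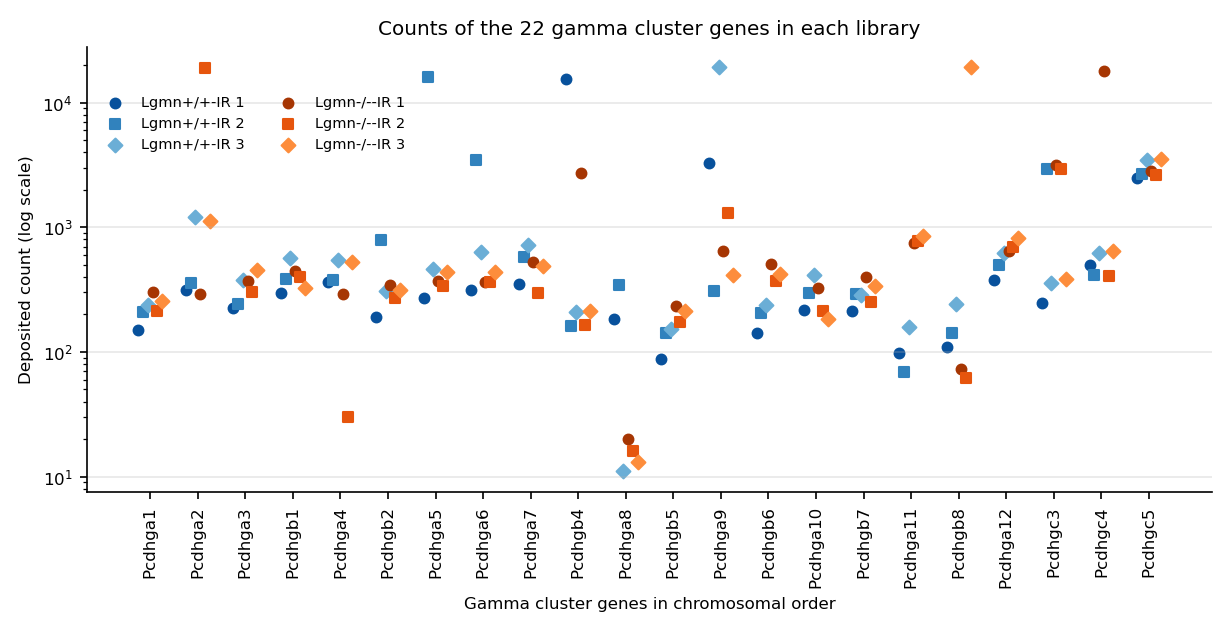
Deposited counts (log axis) of the 22 gamma genes in chromosomal order, with a point for each of the 6 libraries (blue Lgmn+/+-IR, orange Lgmn-/--IR). The single points of 15510 to 19270 counts belong to a different gene in every library, Pcdhgc5 lies between 2490 and 3550 counts in all libraries, and Pcdhga11 splits by genotype.

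To count such genes, a jump was taken, after the values were seen, as at least 1000 counts in a library and at least 3 times the count of the lowest library. By this measure 8 of 22 gamma genes had a jump (36.4%), against 0 of 14 alpha and 0 of 22 beta genes and 1.96% of all genes tested. Pcdhac2 is the only alpha or beta gene that reaches 1000 counts, so the other alpha and beta genes could not meet this measure. Of the 8112 tested genes that do, 4.43% had a jump. The counts of these 8 genes added up to 20570 to 25487 per library, and those of the other 14 gamma genes to 5403 to 8758. The gamma sum therefore moved little, by at most 1.24 times between libraries in CPM, while its largest part changed gene. The part of reads in the shared constant exons in this pattern was not tested, since the tables give no counts per exon.

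The fold changes of these 8 genes ranged from -3.92 to 5.30 on the log2 scale with standard errors of 0.81 to 2.13. None had an adjusted p under 0.05, although 6 (75%) had an unadjusted p under 0.05, beside 18.6% of all genes (edgeR quasi-likelihood test). DESeq2 gave no adjusted p for Pcdhga5, Pcdhgb4, Pcdhgb8 and Pcdhgc4 and called 0 of the other 4. Most turned on the library with the jump. Pcdhgb8 went from a log2 fold change of 5.30 to -1.32 without knockout library 3, Pcdhgb4 from -2.42 to 2.46 without wildtype library 1, and Pcdhga5 from -3.92 to 0.06 without wildtype library 2. Pcdhga2 and Pcdhgc4 fell to 0.20 and 0.00 without knockout libraries 2 and 1. With the library of the jump left out, the direction of the genotype difference was thus reversed or near 0 for these 5 genes. Without the 8 genes the gamma sum was 157 ± 26.9 CPM against 174 ± 28.9 CPM, a ratio of 1.11 with overlapping groups.

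Among the 14 gamma genes without a jump, Pcdhgc5 was highest, and it was a steady C-type gene with 2490, 2681 and 3465 counts against 2823, 2613 and 3550 (log2 fold change 0.03, SE 0.16). On the deposited FPKM it was 22.1 ± 3.16 and 18.3 ± 1.16, so its direction depended on the scale. Pcdhga8 had the lowest counts, with 185, 346 and 11 against 20, 16 and 13 (log2 fold change -3.52, SE 1.04, adjusted p = 0.135, edgeR quasi-likelihood test). Wildtype library 3 was as low as the knockout libraries, so the groups overlapped. Without that library the adjusted p was 0.00644 and the log2 fold change -4.08, and DESeq2 on all libraries gave an adjusted p of 0.0323. Pcdhga4 was low in a single library, with 367, 378 and 547 counts against 289, 30 and 529.

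Exon bases shared by members also lie under the processed transcript Gm38182. It had 440, 137 and 508 counts against 166, 423 and 791, few beside the 25973 to 33475 counts of the gamma cluster. Whether these bases belong to constant exons, and of which cluster, was not resolved. The other annotated genes on shared exon bases, Gm37013, Gm42416 and Gm37388, had 42 counts or fewer in every library.

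Of the genes around the clustered protocadherins in function, edgeR called 0. For the counts at an unadjusted p under 0.05 below, the share over all genes was 18.6% (edgeR quasi-likelihood test). Of 12 protocadherins outside the clusters 0 were called by edgeR, limma-voom or DESeq2 and 0 had an unadjusted p under 0.05 (median log2 fold change 0.08), with Pcdh12 at 0.74 and Pcdh8 at -0.36. Of 17 classical cadherins edgeR called 0, with 2 at an unadjusted p under 0.05, and DESeq2 and limma on log2(FPKM + 1) called only Cdh1. Cdh1, the epithelial cadherin, had the largest decrease at 155, 140 and 128 counts against 89, 91 and 83 (log2 fold change -0.73, adjusted p = 0.0786, edgeR quasi-likelihood test).

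Factors known to control protocadherin promoters gave 0 calls of 26 with edgeR, 4 at an unadjusted p under 0.05, and 1, Tet1, with DESeq2 (median log2 fold change 0.03). Ctcf, which anchors the promoter loops, was at 57.1 ± 7.21 and 58.7 ± 1.23 CPM, and the cohesin subunit Rad21 was at 128 ± 6.64 and 134 ± 12.1 CPM. The methylcytosine dioxygenase Tet1 had 388, 448 and 494 counts against 245, 339 and 218. Its groups were apart, and the difference missed the threshold (log2 fold change -0.77, SE 0.18, adjusted p = 0.0675, edgeR quasi-likelihood test). Tet2 was at -0.43 (adjusted p = 0.160) and the DNA methyltransferase Dnmt3a at 0.91 (adjusted p = 0.225), the latter with 1088, 3134 and 2245 counts in the knockout libraries against 866 to 1348 in the wildtype libraries.

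The partners of the protocadherin tail gave 0 calls of 21 with edgeR, 5 at an unadjusted p under 0.05, and 2, Fyn and Nckap1, with DESeq2 (median log2 fold change 0.13). Fyn, a kinase bound by alpha proteins, had 4321, 4429 and 4594 counts against 5864, 5358 and 6220 (log2 fold change 0.35, adjusted p = 0.119, edgeR quasi-likelihood test). Nckap1, a subunit of the WAVE complex that drives actin branching, had 22377, 22467 and 27837 counts against 19594, 19358 and 19200 (log2 fold change -0.36, adjusted p = 0.0954, edgeR quasi-likelihood test). Psen2, a catalytic subunit of the gamma-secretase that cuts protocadherins in the membrane, was at -0.39 (adjusted p = 0.169).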

How the data were processed

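Bulk RNA of the cortex was sequenced from 6 mice, 1 library each. After trimming (Trimmomatic 0.36) and alignment (HISAT2), the authors counted reads per gene and deposited these counts without scaling. The FPKM values deposited beside them were computed by the authors with StringTie. The build (GRCm38) comes from the submitters' processing notes. The read counter, its strand setting and its treatment of reads in shared exons are not given in the sources used here. Exons of the members were taken from GENCODE release M21, and first exons were compared with BLAST 2.17.0+.

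The groups follow the sample labels. The counts of all 6 libraries were fitted with edgeR 4.0.16 in R 4.3.3, by a quasi-likelihood F-test of genotype after TMM scaling and the filterByExpr filter, and p-values of the 18345 genes left were adjusted by the Benjamini-Hochberg method. The standard error (SE) given for a log2 fold change was its size divided by the square root of the F statistic. A gene was called at an adjusted p under 0.05, and a called gene with a log2 fold change above 1 in size was a DEG, as in the study's methods. Sums over genes and composition were given without a test. Within a genotype, pairs of libraries differed far beyond sampling noise (chi-square averaged over genes, 29.0 to 104), and none were merged. The fits were tested on simulated counts with 200 changed genes. There edgeR called 63% of 2-fold and 95% of 4-fold changes, and 7.60% of its calls were false. DESeq2 called 79% and 97%, with 25.1% of its calls false. For limma-voom these values were 58%, 95% and 6.71%. A gene that edgeR did not call can thus still differ, and in this simulation a call by DESeq2 was false more often. The simulated counts were drawn with the dispersions and scaling that edgeR estimated, so they cannot rank the tools on these libraries.

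Alternatives were DESeq2 1.42.0, limma-voom and limma 3.58.1 on log2(FPKM + 1) and log2(FPKM + 0.1), other normalizations and filters, hemoglobin genes left out of the scaling, the replicate number as a block, and each library left out in turn. The members and lists were chosen with earlier results of these data known. Named with values are the members called, the C-type genes, the highest and lowest members of each cluster by CPM and by log2 fold change, Lgmn, and in each list the genes called or those with the largest changes. Other members, including those with jumps or with groups apart, were named after their values were seen. Sequences of the members are not reported here. Counting intervals and floors cover counting error only.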

Additional observations from a re-analysis of the deposited data

How the results depend on the processing

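Pcdhga11 was called under all 16 alternatives, none of which changes how reads in shared exons were assigned. The count of members with an adjusted p under 0.05 (3 with edgeR) was 5 with DESeq2, 1 with either FPKM pseudocount, 1 without a filter, and 1 to 2 when a library was left out, and that of member DEGs (2) was 1, 1 and 1 to 2 with the FPKM, without a filter and without a library. Same-numbered libraries are different mice, and their deviations from the group means correlated at -0.25, -0.05 and -0.03, so the numbers do not pair them. With the replicate block 1 member was called, as 1 DEG, and 150 genes in all, 139 of them DEGs, with 2 genes of the other lists (12 without the block). Over all genes, the 611 calls and 377 DEGs became 1423 and 593 with DESeq2, 406 and 228 under a minimum of 10 counts per library, and 223 to 500 and 200 to 326 without a library. There were 404 calls without a filter and 175 DEGs on log2(FPKM + 1). The lists held 19 calls with DESeq2 and 1 to 10 without a library. The cause of these changes was not tested, other than that fewer libraries enter when a library is left out. Without the C-type genes the gamma ratio of knockout over wildtype was 0.811, because the gene with the jump in knockout library 1, Pcdhgc4, is a C-type gene. The same ratio without the genes that jump (1.11) was added after seeing the data.

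These log2 fold changes changed sign. Pcdhb11 was 0.020 with limma-voom and 0.020 with the replicate block. With FPKM pseudocounts of 1 and 0.1, Pcdhb18 was -0.0098 and -0.023, Pcdhb20 was -0.0020 and -0.00028, and Pcdhgc5 was -0.25 and -0.26. Leaving out a library gave -0.046 to 0.21 for Pcdhac2, -0.15 to 0.13 and -0.082 to 0.49 for Pcdha11 (ENSMUSG00000007440 and ENSMUSG00000102206), -0.25 to 0.18 for Pcdhb11, -0.096 to 0.42 for Pcdhb12, -0.092 to 0.52 for Pcdhb13, -0.22 to 0.023 for Pcdhb16, -0.14 to 0.18 for Pcdhb18, -1.002 to 0.18 for Pcdhb19, and -0.088 to 0.13 for Pcdhb20. In the gamma cluster it gave -0.28 to 0.13 for Pcdhgb1, -0.86 to 0.29 for Pcdhgb2, -4.88 to 2.46 for Pcdhgb4, -4.48 to 0.055 for Pcdhga5, -1.32 to 5.89 for Pcdhgb8 and -0.13 to 0.15 for Pcdhgc5. Pcdh8 ranged from -0.57 to 0.00023 and Pde10a, a striatum marker, from -1.64 to 0.57.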
